A study of Homo sapiens with 12 samples.

Results

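The genes described here belong to the NRF2 response, the thioredoxin system and ferritin. They were chosen by symbol, as the genes NFE2L2, KEAP1, NQO1, HMOX1, TXN, TXNRD1, SRXN1, PRDX1, FTL and FTH1, and were found through their Ensembl identifiers. Of these 10 genes, 9 were in the count table of 17786 gene identifiers. HMOX1 was not analysed here. All 9 passed the filter on low counts that left 13598 genes for testing.

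K562, a human line from a chronic myelogenous leukaemia with erythroid features, was profiled by poly(A)-selected RNA sequencing in 12 libraries, 4 per group. AKB cells received 2 mM alpha-ketobutyrate for 24 h, pyruvate cells received 2 mM pyruvate for 24 h, and untreated cells received neither. No vehicle is named for the untreated cells, and no genotype change is named for any group. All groups were kept in the same serum-containing medium with glutamine and antibiotics. Alpha-ketobutyrate and pyruvate are both 2-oxo acids, and alpha-ketobutyrate is the longer of them by a methylene group. Nothing in the labels says whether replicate libraries were separate cultures, and p-values therefore reflect the spread between these samples alone, which may be technical.

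NRF2, the product of NFE2L2, is a transcription factor that switches on antioxidant and detoxifying enzymes. In resting cells KEAP1 holds NRF2 for ubiquitination and breakdown, and electrophiles or oxidants that modify cysteines of KEAP1 let NRF2 accumulate, so that the pathway is controlled largely at the level of NRF2 protein and less at that of its mRNA. NQO1, TXNRD1, SRXN1, PRDX1, TXN and both ferritin chains are known NRF2 targets. Thioredoxin (TXN) reduces disulfides and is itself reduced by thioredoxin reductase (TXNRD1) with NADPH. Ferritin stores iron in a shell of light (FTL) and heavy (FTH1) chains, and erythroid cells handle large amounts of iron for haem.

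Promoter matches to the motif bound by NRF2, and then the iron-responsive elements of ferritin, are shown first. NRF2 with a small MAF partner binds the antioxidant response element, whose core was searched here as TGACNNNGC on both strands. Promoter windows from RefSeq (GRCh38.p14), from 250 bases before to 50 bases after each gene start, were found for 7 of the listed symbols, with 10 windows in all. The core was in 3 of these windows, belonging to KEAP1 and TXNRD1. Of all 35116 windows of the same length, 13.3% held it. A match is a description of the letters and not of binding, and elements outside these windows were not searched. The matches are given 5′ to 3′ on the strand of the gene, with the core or its reverse complement in capitals. The KEAP1 matches lie at chr19:10502807-10502835 and chr19:10502784-10502812 on the minus strand. The TXNRD1 matches lie at chr12:104215670-104215698, chr12:104215761-104215789 and, in the window of another start, chr12:104286920-104286948 on the plus strand.
KEAP1, 54 bases before the start: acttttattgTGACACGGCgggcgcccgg
KEAP1, 31 bases before the start: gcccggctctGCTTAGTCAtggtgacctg
TXNRD1, 99 bases before the start: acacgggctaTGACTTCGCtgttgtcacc
TXNRD1, 8 bases before the start: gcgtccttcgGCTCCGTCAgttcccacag
TXNRD1, 102 bases before the other start: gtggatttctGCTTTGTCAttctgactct

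Ferritin mRNAs carry an iron-responsive element in the 5′ UTR, to which iron regulatory proteins bind when iron is scarce, blocking translation. Ferritin protein can therefore move without a change in its mRNA, and only the mRNA was measured here. Both elements are shown from GENCODE 29 transcripts on GRCh38, with the loop letters in capitals. Their part in the ratio of ferritin mRNA counts below was not tested. They lie at chr19:48965334-48965361 on the plus strand (FTL) and chr11:61967576-61967603 on the minus strand (FTH1). The loop began at base 47 of the FTL transcript and at base 71 of the FTH1 transcript, before start codons at bases 208 and 236. The 28 bases shown were identical at 25 positions.
FTL: tctcttgcttcaaCAGTGtttggacgga
FTH1: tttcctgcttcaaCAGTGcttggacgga

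Library totals ran from 15353200 to 21301073 counts. The erythroid markers HBE1, HBG1, HBG2, HBZ, GATA1 and TFRC were all present, and their sum was 15004 to 16956 CPM in AKB, 11598 to 12751 CPM in pyruvate and 13478 to 15295 CPM in untreated libraries. CPM are counts relative to the library total. They were not scaled further for the markers of this paragraph, and elsewhere they were scaled between libraries by the TMM method. The other blood markers summed to 177 to 199 CPM in AKB, 125 to 176 CPM in pyruvate and 181 to 194 CPM in untreated libraries, mostly PTPRC and LYZ, and MS4A1 was not analysed here. CD3E, CD14 and ALB stayed below 1 CPM in every library, and EPCAM lay between 80.9 and 104 CPM. The part of these markers in the results was not tested, and in such bulk samples fewer cells of a type and less RNA per cell cannot be told apart. Pyruvate replicates 3 and 4 stood apart from the other 10 libraries along GC content. Their deviation from the gene means rose by 0.328 and 0.348 on the log2 scale per 10 percentage points of transcript GC, against −0.155 to 0.0179 in the others. Results are therefore given over all 12 libraries, after an offset for GC content, and without those 2 libraries.

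No gene of the group passed edgeR's quasi-likelihood test over 12 libraries (Benjamini-Hochberg adjusted p below 0.05 over all genes) in any comparison. The count was 0 of 9 for AKB against untreated, where 1.97% of all genes passed. It was 0 of 9 for pyruvate against untreated, where 1.95% passed, and 0 of 9 for AKB against pyruvate, where 3.13% passed. At an unadjusted p below 0.05 the counts were 2, 3 and 1 of 9, in the same order, where 13.2%, 28.9% and 24.2% of all genes passed that threshold. limma-voom also called 0 of 9 in each, where it called 1.9%, 1.62% and 3.1% of all genes. DESeq2's Wald test called 0, 2 and 0 of 9, where it called 3.96%, 13.7% and 11.3% of all genes, and its 2 calls were NFE2L2 and SRXN1, both lower with pyruvate. The largest fold in the group was 1.29, for NFE2L2 with AKB. Both comparisons with untreated cells share the same 4 untreated libraries.

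**Figure D1:**
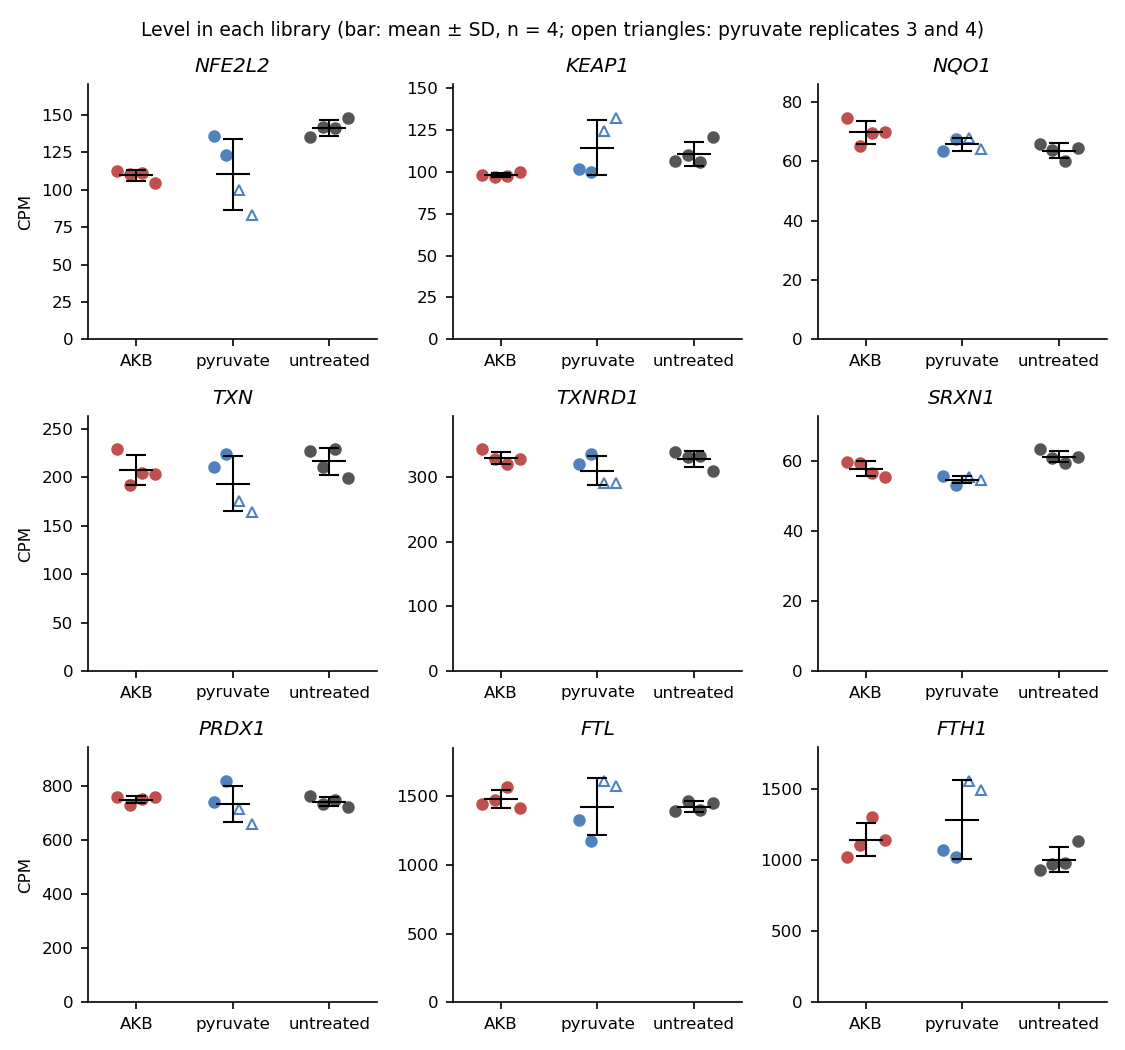
Level of each gene in every library, in CPM, for AKB (left), pyruvate (middle) and untreated (right) libraries; bars give the mean and SD of 4 libraries, and open triangles mark pyruvate replicates 3 and 4. NFE2L2 lies lower in all 4 AKB libraries (104 to 112 CPM) than in all 4 untreated ones (135 to 148 CPM), while FTL and FTH1 spread widely among the pyruvate libraries.

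NFE2L2, on chromosome 2 (chr2:177227595-177392697, minus strand, GENCODE 29), was lower after AKB in every library. It was at 112, 111, 111 and 104 CPM in the AKB libraries, at 136, 123, 99.7 and 83.1 CPM in the pyruvate libraries, and at 135, 142, 141 and 148 CPM in the untreated libraries. All AKB libraries lay below all untreated ones, and the pyruvate libraries overlapped both. Means were 110 ± 3.59 CPM with AKB, 111 ± 23.7 CPM with pyruvate and 142 ± 5.34 CPM in untreated cells (SD, n = 4 each). The log2 fold change was −0.37 ± 0.12 (SE) for AKB against untreated, with an adjusted p of 0.186 in edgeR's test over 12 libraries. Without pyruvate replicates 3 and 4 the estimate was again −0.37, with an SE of 0.045 and an adjusted p of 0.00091. It also passed with the GC-content offset (adjusted p = 0.0297), in a fit of the 8 AKB and untreated libraries alone (adjusted p = 0.000771), and without pyruvate replicate 4 alone (adjusted p = 0.0353). The call thus turned on libraries that are in neither group of the comparison, through the spread shared by the fit.

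With pyruvate the NFE2L2 estimate was −0.36 ± 0.12 (SE) on the log2 scale, with an adjusted p of 0.101 by edgeR. That value rested on pyruvate replicates 3 and 4, at 99.7 and 83.1 CPM, since replicates 1 and 2 stood at 136 and 123 CPM. Without replicates 3 and 4 the estimate was −0.13 with an adjusted p of 0.339. Leaving out pyruvate replicate 1 instead gave −0.47 (adjusted p = 0.0182), and leaving out pyruvate replicate 2 gave −0.42 (adjusted p = 0.039). The difference of replicates 3 and 4 from 1 and 2 was −0.51 on the log2 scale, where the trend of all genes at the same GC content (45.6%) was −0.14. Exons of AGPS, an ether lipid synthesis gene on the opposite strand, overlap those of NFE2L2, and the library kit is not stated to keep strand. AGPS was at 237 ± 12.9 CPM with AKB and 247 ± 17.8 CPM in untreated cells, a log2 difference of −0.07 (adjusted p = 0.864). In pyruvate cells AGPS was at 199 ± 39.5 CPM (SD, n = 4), and its part in the NFE2L2 values was not tested.

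KEAP1, the inhibitor of NRF2 (chr19:10486120-10503741, minus strand), was also lower after AKB in every library than in untreated cells. It was at 98.1, 97.0, 97.4 and 99.9 CPM in the AKB libraries, at 102, 99.9, 124 and 132 CPM in the pyruvate libraries, and at 106, 110, 106 and 121 CPM in the untreated libraries. The AKB libraries varied little among themselves, with a coefficient of variation of 1.32%, and lay below all untreated and all pyruvate libraries. It was the 1 gene of 9 with AKB libraries all below the pyruvate ones, where 4.54% of all genes were, and the distance to the nearest pyruvate library was small, 99.90 against 99.93 CPM. KEAP1 and NFE2L2 were the 2 of 9 genes whose AKB libraries all lay below the untreated ones, where 8.41% of all genes did so. The KEAP1 log2 fold change for AKB against untreated was −0.17 ± 0.09 (SE), with an adjusted p of 0.453 by edgeR over 12 libraries. It was −0.30 with the GC-content offset (adjusted p = 0.0103), −0.17 without pyruvate replicates 3 and 4 (adjusted p = 0.0371) and −0.175 in the 8 libraries alone (adjusted p = 0.0429).

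With pyruvate KEAP1 changed sign between fits, and none of these 3 values passed the test. Its transcript has 60.3% GC, the highest of the group, and pyruvate replicates 3 and 4 were 0.35 above replicates 1 and 2 on the log2 scale, where the trend of all genes at this GC content was 0.54. The estimate against untreated was 0.05 over 12 libraries (adjusted p = 0.716), −0.20 with the GC-content offset (adjusted p = 0.0534) and −0.13 without those libraries (adjusted p = 0.312).

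**Figure D2:**
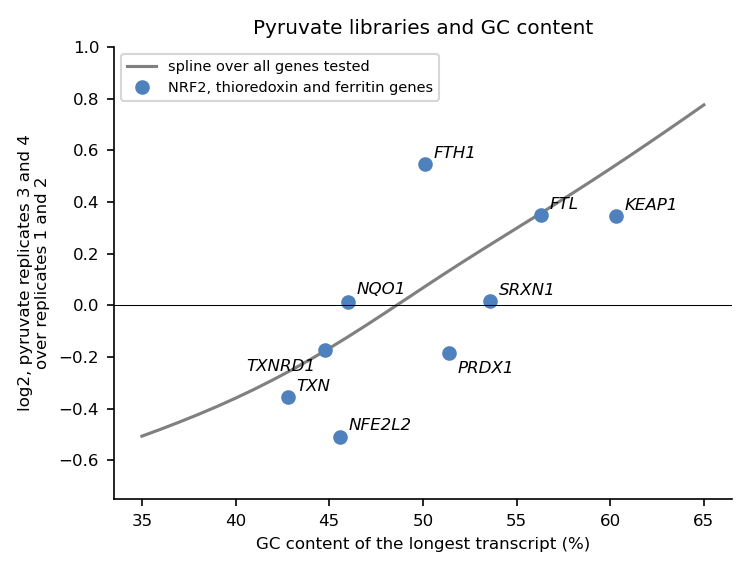
Change between pyruvate replicates 3 and 4 and replicates 1 and 2 (log2, vertical) against GC content of the longest transcript (percent, horizontal) for the 9 genes (points) and the trend over all genes tested (line). TXNRD1 and FTL lie on the trend, FTH1 lies above it (0.55 against 0.07) and NFE2L2 lies below it (−0.51 against −0.14).

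NQO1 is a quinone reductase and a commonly used readout of NRF2 activity (chr16:69706996-69726951, minus strand). It was at 74.7, 65.2, 69.7 and 69.9 CPM in the AKB libraries, at 63.4, 67.4, 67.8 and 64.2 CPM in the pyruvate libraries, and at 65.8, 64.0, 60.0 and 64.6 CPM in the untreated libraries. AKB replicate 2 lay inside the untreated range, and the other AKB libraries lay above it. The log2 fold change was 0.14 ± 0.06 (SE) for AKB, with an adjusted p of 0.358 by edgeR, and ran from 0.11 to 0.17 over 23 fits, none of which called it. With pyruvate it was 0.05 (adjusted p = 0.595). An antisense gene that overlaps exons of NQO1 was not analysed here.

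The thioredoxin genes showed small differences. TXN was at 229, 192, 205 and 204 CPM in the AKB libraries, at 211, 224, 176 and 164 CPM in the pyruvate libraries, and at 228, 210, 229 and 200 CPM in the untreated libraries. TXNRD1 was at 344, 328, 321 and 328 CPM in the AKB libraries, at 321, 336, 292 and 292 CPM in the pyruvate libraries, and at 339, 332, 333 and 310 CPM in the untreated libraries. For both genes the AKB range overlapped the untreated range, and the lowest libraries were pyruvate replicates 3 and 4. The 95% interval of the AKB effect on TXNRD1 was −0.12 to 0.14 on the log2 scale, and that on TXN was −0.28 to 0.15. The pyruvate estimates were −0.08 for TXNRD1 (adjusted p = 0.346) and −0.16 for TXN (adjusted p = 0.27), and both were 0.00 without pyruvate replicates 3 and 4. Between those replicates and the other pyruvate libraries TXNRD1 differed by −0.172, and the trend of all genes at its GC content (44.8%) was −0.175.

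PRDX1 is a peroxiredoxin that thioredoxin keeps reduced while it removes hydrogen peroxide. It was at 759, 729, 751 and 759 CPM in the AKB libraries, at 740, 819, 713 and 660 CPM in the pyruvate libraries, and at 763, 735, 750 and 723 CPM in the untreated libraries. All groups overlapped, and the interval of the AKB effect ran from −0.12 to 0.14 on the log2 scale. Exons of MMACHC on the opposite strand overlap PRDX1, and MMACHC was at 14.2 to 16.9 CPM with AKB, 15.3 to 21.0 CPM with pyruvate and 16.8 to 17.2 CPM in untreated cells. PRDX1 was at 51.4% GC, where the trend between the pyruvate replicates was 0.13, yet its own value was −0.18.

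SRXN1, sulfiredoxin, repairs peroxiredoxins whose cysteine has been over-oxidised (chr20:646615-653370, minus strand). It was at 59.5, 59.4, 56.5 and 55.3 CPM in the AKB libraries, at 55.5, 53.1, 55.2 and 54.5 CPM in the pyruvate libraries, and at 63.2, 60.6, 59.4 and 61.0 CPM in the untreated libraries. All 4 pyruvate libraries lay below all 4 untreated ones, which held for 6% of all genes. Pyruvate replicates 3 and 4 differed from 1 and 2 by 0.015 on the log2 scale. The trend of all genes at the GC content of SRXN1 (53.6%) was 0.233. SRXN1 also shares exons with AL121758.1 on the same strand, which was not analysed here. It was the 1 gene of 9 whose pyruvate and untreated libraries did not overlap. The log2 fold change for pyruvate was −0.16 ± 0.05 (SE), with an adjusted p of 0.0941 by edgeR, −0.17 without replicates 3 and 4 (adjusted p = 0.181) and −0.28 with the GC-content offset (adjusted p = 0.0195). For AKB it was −0.08 (adjusted p = 0.561). In the authors' deposited table, whose fold change runs untreated over pyruvate, SRXN1 was at 0.21 on the log2 scale with an adjusted p of 0.00974. Of all genes with an adjusted p in that table, 12% were below 0.05.

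**Figure D3:**
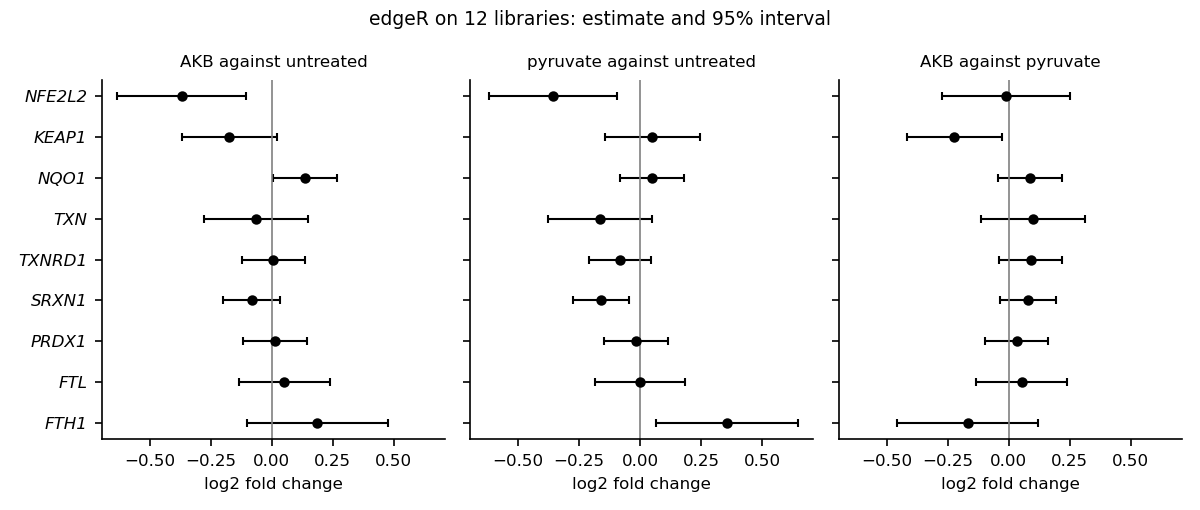
Log2 fold change with its 95% interval from edgeR over 12 libraries, with a panel each for AKB and pyruvate against untreated cells and a last one for AKB against pyruvate, 1 line per gene. The interval lies below 0 for NFE2L2 against untreated with both compounds, for SRXN1 with pyruvate and for KEAP1 in AKB against pyruvate, and above 0 for NQO1 with AKB (0.006 to 0.266) and FTH1 with pyruvate (0.065 to 0.646), although no adjusted p was below 0.05.

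FTL, the light ferritin chain (chr19:48965301-48966878, plus strand), had the highest level per kilobase of the group. It was at 1444, 1472, 1567 and 1413 CPM in the AKB libraries, at 1325, 1175, 1609 and 1572 CPM in the pyruvate libraries, and at 1386, 1458, 1394 and 1449 CPM in the untreated libraries. The AKB libraries overlapped the untreated ones, and the pyruvate libraries split into 2 below and 2 above the untreated range. The pyruvate estimate was −0.002 on the log2 scale over 12 libraries (adjusted p = 0.991), with a 95% interval of −0.19 to 0.18. With the GC-content offset it was −0.18 (adjusted p = 0.0288), and without replicates 3 and 4 it was −0.19 (adjusted p = 0.163). In the authors' deposited table of untreated over pyruvate FTL was at 0.012 on the log2 scale with an adjusted p of 0.951, nearer to the estimate without the offset. The difference between pyruvate replicates 3 and 4 and replicates 1 and 2, 0.35 on the log2 scale, was close to the trend of all genes at the 56.3% GC of FTL, 0.36.

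FTH1, the heavy chain with ferroxidase activity (chr11:61959718-61967660, minus strand), had the highest pyruvate estimate of the group. It was at 1020, 1104, 1299 and 1141 CPM in the AKB libraries, at 1067, 1017, 1555 and 1489 CPM in the pyruvate libraries, and at 931, 969, 975 and 1133 CPM in the untreated libraries. Both treated groups overlapped the untreated one, in which replicate 4 was the highest. The log2 fold change was 0.36 ± 0.13 (SE) for pyruvate (adjusted p = 0.12 by edgeR) and 0.19 ± 0.13 for AKB (adjusted p = 0.618). Without pyruvate replicates 3 and 4 the pyruvate estimate was 0.06 (adjusted p = 0.848), while leaving out replicate 1 or replicate 2 gave 0.45 in both cases (adjusted p = 0.0435 and 0.0283). The difference of replicates 3 and 4 from 1 and 2 was 0.55, where the trend at the 50.1% GC of FTH1 was 0.07, and with the GC-content offset the estimate was 0.31 (adjusted p = 0.12).

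The balance of the chains within a library was described by the ratio of FTL to FTH1 counts, without a test. It was 1.42, 1.33, 1.21 and 1.24 in the AKB libraries, 1.24, 1.16, 1.03 and 1.06 in the pyruvate libraries, and 1.49, 1.51, 1.43 and 1.28 in the untreated libraries. All 4 pyruvate libraries, replicates 1 and 2 included, lay below all 4 untreated ones, and the AKB libraries overlapped the untreated range. The nearest pyruvate and untreated libraries were at 1.24 and 1.28. How often ratios of other gene pairs separate these groups was not tested. In each group replicates 3 and 4 lay below replicates 1 and 2. FTL and FTH1 differ in GC content (56.3% and 50.1%), and the ratio was not adjusted for it. Means were 1.30 ± 0.095 with AKB, 1.12 ± 0.0957 with pyruvate and 1.43 ± 0.103 in untreated cells (SD, n = 4 each). FTL and FTH1 together summed to 2615 ± 174 CPM with AKB, 2702 ± 483 CPM with pyruvate and 2424 ± 115 CPM in untreated cells. Counts on annotated ferritin pseudogenes were 0.0551% of the FTH1 counts and 0.0271% of the FTL counts, and adding them left 0 genes called in every comparison.

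**Figure D4:**
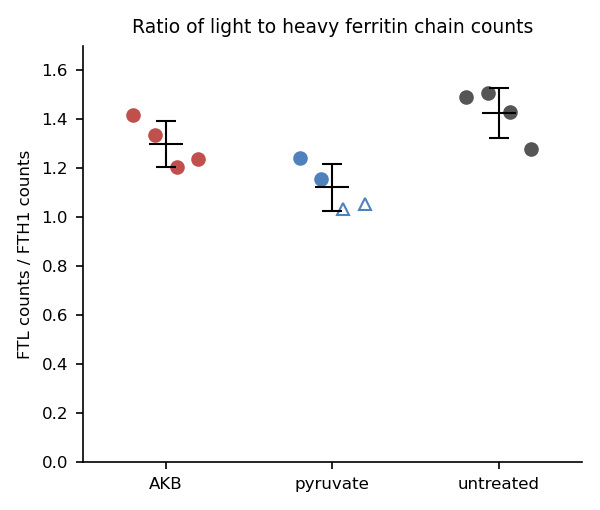
Ratio of FTL to FTH1 counts in each library (vertical, no unit), with the mean and SD of 4 libraries; open triangles mark pyruvate replicates 3 and 4. The pyruvate libraries lie between 1.03 and 1.24 and the untreated ones between 1.28 and 1.51.

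Levels between genes were compared per kilobase of the longest transcript, over all 12 libraries. FTL was highest at 1638 ± 134 CPM per kb, followed by FTH1 at 929 ± 166, PRDX1 at 601 ± 30.3 and TXN at 237 ± 24.1 CPM per kb (SD, n = 12). TXNRD1 was at 75.6 ± 4.01, NFE2L2 at 42.3 ± 7.06, KEAP1 at 36.5 ± 3.97, NQO1 at 22.8 ± 1.31 and SRXN1 at 21.4 ± 1.16 CPM per kb. Over the 12 libraries together neighbours in this order differed beyond their SDs, except NFE2L2 and KEAP1, and NQO1 and SRXN1, which did not. Within groups NFE2L2 and KEAP1 lay apart in AKB (38.4 ± 1.2596 and 33.2 ± 0.439 CPM per kb) and untreated libraries (49.6 ± 1.87 and 37.4 ± 2.35 CPM per kb), and were level in pyruvate libraries (38.7 ± 8.32 and 38.7 ± 5.46 CPM per kb; SD, n = 4 each). NQO1 lay above SRXN1 in AKB (24.0 ± 1.33 and 21.4 ± 0.773 CPM per kb) and pyruvate libraries (22.6 ± 0.765 and 20.2 ± 0.397 CPM per kb), and the order turned within the SDs in untreated libraries (21.8 ± 0.857 and 22.6 ± 0.592 CPM per kb). With the union of exons as length NFE2L2 was at 20.2 CPM per kb, below KEAP1 at 28.6. Together the 9 genes held 0.391% to 0.469% of the counts of a library.

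Set against each other at 2 mM and 24 h, no gene of the group differed past the threshold between AKB and pyruvate over 12 libraries. They were compared as 1 pair of compounds, with p-values adjusted over all genes tested. KEAP1 had the lowest unadjusted p, with a log2 difference of −0.22 ± 0.09 (SE, AKB over pyruvate), a 95% interval of −0.42 to −0.03 and an adjusted p of 0.158 by edgeR. Leaving out pyruvate replicate 2 brought it to −0.28 (adjusted p = 0.046), and leaving out replicates 3 and 4 to −0.04 (adjusted p = 0.745). For NFE2L2 the interval was −0.27 to 0.25 around −0.01, for FTH1 it was −0.46 to 0.12, and for NQO1 −0.04 to 0.22, so differences inside these ranges remain possible. Without pyruvate replicates 3 and 4, 2 of 9 genes passed, where 4.36% of all genes did. These were NFE2L2, lower with AKB by −0.24 (adjusted p = 0.0365), and FTL, higher with AKB by 0.24 (adjusted p = 0.0407). With the GC-content offset 0 of 9 passed, where 14.8% of all genes did, and FTL had an adjusted p of 0.0516.

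**Figure D5:**
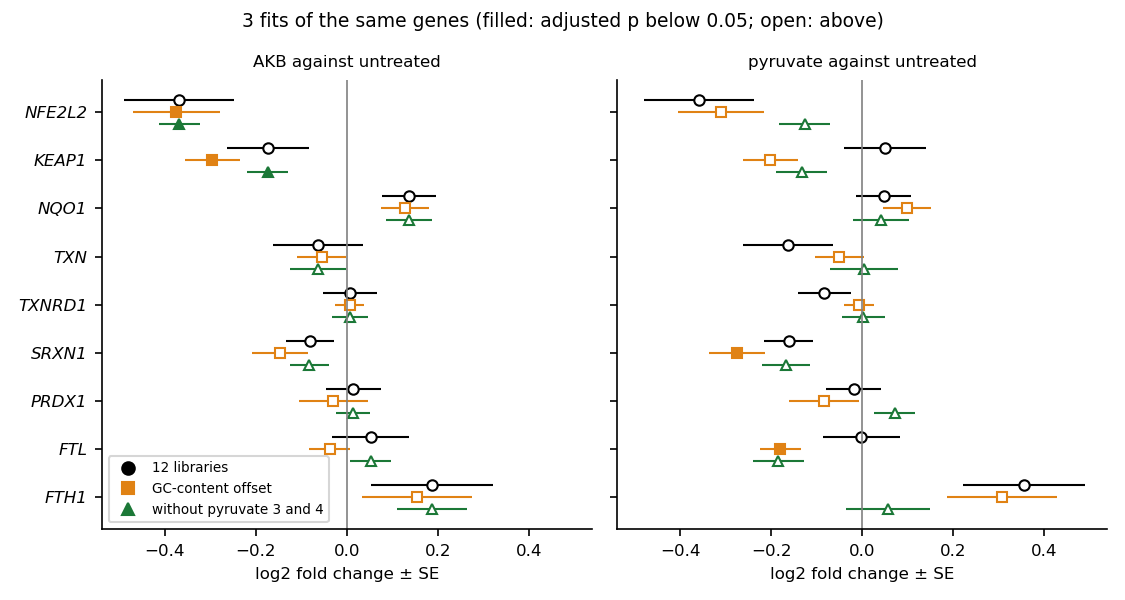
Log2 fold change ± SE of each gene against untreated cells for AKB (left) and pyruvate (right) in 3 fits; filled symbols had an adjusted p below 0.05. NFE2L2 and KEAP1 passed for AKB with the offset, as they did when pyruvate replicates 3 and 4 were left out, and SRXN1 and FTL passed for pyruvate with the offset.

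The offset called 9.05% of all genes for AKB against untreated and 9.16% for pyruvate against untreated, so the 2 of 9 genes called in each are read against those shares. Leaving out pyruvate replicates 3 and 4 called 9.17% for AKB and 0.71% for pyruvate, and the 8 AKB and untreated libraries alone called 10.1%. In the authors' deposited table of untreated over AKB, NFE2L2 was at 0.31 (adjusted p = 0.0742) and KEAP1 at 0.26 (adjusted p = 0.0614) on the log2 scale, so both were lower with AKB there. In the authors' deposited table of untreated over pyruvate, KEAP1 was at 0.23 (adjusted p = 0.0661), a lower level with pyruvate, which is the sign of the offset fit and not that of the counts without it.

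Known NRF2 targets outside the group moved in both directions. Of 35 listed, 28 were tested, with 4 higher and 1 lower after AKB, 0 higher and 1 lower after pyruvate, and 4 higher and 0 lower with AKB than with pyruvate. At an unadjusted p below 0.05 the counts were 11 higher and 1 lower, 8 and 5, and 11 and 2. The shares of all genes at that threshold were 8.07% higher and 5.13% lower for AKB against untreated, 15% and 13.9% for pyruvate against untreated, and 12.2% and 12.1% for AKB against pyruvate. In the same order limma-voom called 4 and 1, 0 and 1, and 5 and 0, where it called 1.9%, 1.62% and 3.1% of all genes in either direction. DESeq2's Wald test called 6 and 1, 4 and 2, and 6 and 2, where it called 3.96%, 13.7% and 11.3%. The background of edgeR's calls was 1.37% higher and 0.603% lower for AKB, 1.02% and 0.927% for pyruvate, and 1.94% and 1.19% for AKB against pyruvate. With the GC-content offset the counts were 5 and 1, 1 and 1, and 6 and 1. The offset called 9.05%, 9.16% and 14.8% of all genes in either direction. Without pyruvate replicates 3 and 4 the counts were 8 and 1, 0 and 1, and 3 and 0. That fit called 9.17%, 0.71% and 4.36% of all genes. Over 12 libraries the list's median log2 fold change was 0.20 for AKB and 0.09 for pyruvate, beside 0.01 and −0.01 over all genes. The list was chosen with earlier results of these data known, so its counts and median are a description and not independent support. After AKB the aldo-keto reductases AKR1C3, AKR1C2 and AKR1C1 and the glutathione transferase GSTM2 rose and the cystine carrier SLC7A11 fell. GSTM2 averaged 11.7 ± 0.596 CPM with AKB and 8.44 ± 0.442 CPM in untreated cells (adjusted p = 0.0231 by edgeR). SLC7A11 averaged 60.5 ± 3.59 CPM with AKB, 43.6 ± 8.40 CPM with pyruvate and 103 ± 8.13 CPM in untreated cells, and fell with both compounds (adjusted p = 0.00646 and 0.000366).

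The difference between the compounds was largest for AKR1C3 in this list. It averaged 19.2 ± 1.57 CPM with AKB and 10.2 ± 0.965 CPM with pyruvate, a 1.88-fold difference (adjusted p = 0.00197 by edgeR). AKR1C1 at 96.3 ± 6.71 against 73.7 ± 3.71 CPM and AKR1C2 at 42.3 ± 4.88 against 28.1 ± 4.05 CPM were also higher with AKB than with pyruvate. These genes are related in sequence, and GSTM2 has close relatives too, so how reads divide among related genes is uncertain. BLVRA, which reduces biliverdin made by haem oxygenase, was higher with AKB at 70.7 ± 7.14 against 52.9 ± 6.72 CPM with pyruvate (adjusted p = 0.0457), and missed the threshold without pyruvate replicates 3 and 4 (adjusted p = 0.122). GSTP1 and PGD, the uncalled targets of highest CPM, did not pass for AKB against untreated (adjusted p = 0.432 and 0.985), for pyruvate against untreated (0.0757 and 0.102) or for AKB against pyruvate (0.368 and 0.118).

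Calls in this list held to different degrees when single libraries were left out of the 12. SLC7A11 passed in all 12 such fits against untreated for both compounds, and AKR1C3 and AKR1C1 did so for AKB against pyruvate. The AKR1C3 call for AKB against untreated ended without untreated replicate 2 or 3 (highest adjusted p = 0.0622), and that of AKR1C2 without AKB replicate 1 or 3 or any untreated library (0.0816). The AKR1C1 call against untreated ended without any 1 of the 8 libraries compared (0.149), and that of GSTM2 without any AKB library or untreated replicate 1, 2 or 3 (0.0911). Against pyruvate the AKR1C2 call ended without AKB replicate 1 or 3 or pyruvate replicate 3 (0.0692), and that of BLVRA without any library other than pyruvate replicates 1 and 2 (0.137).

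Of 24 other thioredoxin, peroxiredoxin and glutaredoxin genes, 22 were tested. After AKB 1 was higher and 1 lower, after pyruvate 0 were higher and 1 lower, and between AKB and pyruvate 2 were higher and 1 lower with AKB, by edgeR. Of all genes edgeR called 1.97%, 1.95% and 3.13% in these comparisons. Before adjustment, p was below 0.05 for 3 higher and 3 lower genes in AKB against untreated, where 13.2% of all genes passed in either direction. These counts were 4 and 5 in pyruvate against untreated, where 28.9% did, and 3 and 2 in AKB against pyruvate, where 24.2% did. limma-voom called 1 and 1, 0 and 1, and 2 and 0 in that order, where it called 1.9%, 1.62% and 3.1% of all genes. DESeq2's Wald test called 2 and 2, 3 and 1, and 3 and 1, where it called 3.96%, 13.7% and 11.3%. The GC-content offset gave 3 and 3, 1 and 3, and 3 and 1, where it called 9.05%, 9.16% and 14.8% of all genes. Leaving out pyruvate replicates 3 and 4 gave 3 and 3, 0 and 2, and 2 and 1, where 9.17%, 0.71% and 4.36% passed. TXNIP, which binds and inhibits thioredoxin, fell to 127 ± 6.19 CPM with AKB and 126 ± 13.5 CPM with pyruvate, against 202 ± 6.46 CPM in untreated cells (adjusted p = 0.00104 and 0.00115 by edgeR), and it passed in all 12 fits without 1 library. MSRB1, a methionine sulfoxide reductase, rose to 31.2 ± 1.64 CPM with AKB against 22.7 ± 1.42 CPM in untreated cells (adjusted p = 0.0202). That call ended without AKB replicate 2, 3 or 4 or untreated replicate 2, 3 or 4 (highest adjusted p = 0.0789). The glutaredoxin GLRX at 8.84 ± 1.30 against 5.13 ± 1.06 CPM and the sestrin SESN3 at 11.5 ± 0.956 against 6.86 ± 1.84 CPM were higher with AKB than with pyruvate (adjusted p = 0.0337 and 0.042). TXNL1, a thioredoxin-like protein of the proteasome, was lower with AKB at 65.8 ± 1.44 against 79.1 ± 6.37 CPM with pyruvate (adjusted p = 0.049). These 3 calls ended without any single AKB library or pyruvate replicate 3, and with most other libraries left out (highest adjusted p = 0.11, 0.11 and 0.135). PRDX6 and PRDX2, the uncalled genes of highest CPM, did not pass in any of the 3 comparisons, with adjusted p from 0.414 to 0.983. The median log2 fold change was −0.06 for AKB and −0.08 for pyruvate, beside 0.01 and −0.01 over all genes.

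Of 20 other iron handling genes 18 were tested, with 0 called after AKB, 1 lower after pyruvate, and 2 higher with AKB than with pyruvate. For AKB against untreated, p before adjustment was below 0.05 for 2 higher and 1 lower gene, where 13.2% of all genes passed in either direction, and limma-voom and DESeq2's Wald test also called 0. The unadjusted counts were 3 higher and 7 lower for pyruvate against untreated, where 28.9% of all genes passed, and 6 and 3 for AKB against pyruvate, where 24.2% did. For pyruvate against untreated limma-voom called 0 higher and 1 lower and DESeq2 2 and 2. For AKB against pyruvate they called 2 and 0, and 5 and 1. Of all genes limma-voom called 1.9%, 1.62% and 3.1%, and DESeq2 3.96%, 13.7% and 11.3%, in the order above. With the GC-content offset the counts higher and lower were 1 and 1, 2 and 2, and 6 and 2. That fit called 9.05%, 9.16% and 14.8% of all genes. Without pyruvate replicates 3 and 4 the counts were 2 and 1, 0 and 0, and 1 and 0, where 9.17%, 0.71% and 4.36% passed. SLC39A14, a carrier of zinc and iron, fell to 89.2 ± 7.35 CPM with pyruvate against 115 ± 7.94 CPM in untreated cells (adjusted p = 0.0329 by edgeR). The iron exporter ferroportin, SLC40A1, was at 86.2 ± 5.21 CPM with AKB and 66.9 ± 8.30 CPM with pyruvate (adjusted p = 0.045). The mitochondrial iron importer SLC25A37 was at 362 ± 8.69 CPM with AKB and 310 ± 12.1 CPM with pyruvate (adjusted p = 0.0406). Without pyruvate replicates 3 and 4 SLC25A37 passed (adjusted p = 0.0403), whereas SLC40A1 and SLC39A14 did not (adjusted p = 0.0752 and 0.0741). The 2 differences between AKB and pyruvate ended without any 1 library other than pyruvate replicates 1 and 2 (highest adjusted p = 0.135 and 0.122), and the SLC39A14 call ended without any AKB library, pyruvate replicate 3 or 4, or untreated replicate 1, 2 or 3 (0.126). TFRC, the transferrin receptor, was at 3388 ± 201 CPM with AKB, 2706 ± 474 CPM with pyruvate and 3308 ± 246 CPM in untreated cells, with adjusted p of 0.935 for AKB and 0.112 for pyruvate. The iron chaperone PCBP2 did not pass for either compound against untreated (adjusted p = 0.621 and 0.0629). The list's median was 0.02 for AKB and −0.16 for pyruvate, and the pyruvate median was −0.05 without pyruvate replicates 3 and 4.

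Genes whose level followed each member most closely over the 12 libraries were sought among 10016 named genes of at least 5 CPM, as a description. The points share the libraries, and with them the GC-related split of the pyruvate group. For NFE2L2 they were TMOD1 (Pearson r = 0.978), H2AC6 (0.956) and NEDD4 (0.951). For NQO1 they were CCDC163 (r = 0.9), TRANK1 (0.834) and FNBP1 (0.831). For TXNRD1 they were HIKESHI (r = 0.979), ABCC4 (0.976) and MED20 (0.969), and for FTL they were ESPN (r = 0.954), MTCH1 (0.95) and DENND4B (0.943).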

How the data were processed

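Per the labels' protocols, poly(A) RNA of K562 cells was fragmented and sequenced. The deposited estimated counts per gene were made by the authors with Salmon 1.2.1, and R 3.6.3 and DESeq2 1.26.0 are also named, per the submitters' processing notes. The sources used here give no genome build, annotation or tool settings. The authors' own comparisons, in 3 tables, hold a mean normalised signal (baseMean), a log2 fold change with its SE, a test score (stat) and raw and adjusted p-values, per the file headers. The fold changes of these deposited tables run untreated over AKB, untreated over pyruvate and AKB over pyruvate.

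Rounding the counts changed 0 values. Symbols were matched for 95.2% of identifiers, and GC content, lengths and gene coordinates were taken from GENCODE 29 on GRCh38 for 95.0%. Genes were filtered by filterByExpr by group (minimum count 10), scaled by TMM and tested in edgeR 4.0.16 (R 4.3.3) with 1 term per group over 12 libraries and no covariate. The threshold was a Benjamini-Hochberg adjusted p of 0.05 over 13598 genes. SE is the size of the log2 fold change over the square root of F, and intervals cover 95%. The GC-content offset was, per library, a natural spline with 5 degrees of freedom. limma 3.58.1 and DESeq2 1.42.0 were alternatives, with 23 alternative fits in all. The procedure was tested on simulated data. Libraries of a group differed by more than sampling noise (chi-square per degree of freedom of at least 4.47), so none was counted as a repeat of the same library. That measure cannot tell separate cultures from separate preparations of the same culture.

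The members, lists and alternatives were chosen with earlier results of these data known. All 10 listed genes are named where measured. From 5 further lists, up to 5 genes that passed per comparison (smallest adjusted p) and up to 2 others of highest mean CPM are named. For NFE2L2, NQO1, TXNRD1 and FTL the 3 genes of highest Pearson r are named. The depth, 15353200 to 21301073 counts per library, gave 12069 counts over all libraries for the least counted gene, SRXN1.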

Additional observations from a re-analysis of the deposited data

How the results depend on the processing

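Of 621 log2 fold changes of the 9 genes recomputed in alternative fits, 556 kept direction and side of the threshold, 23 passed the threshold in the same direction where the 12-library fit did not, and 42 turned sign, 1 of which also passed (24 passing in all). Sign changes: AKB against untreated, TXNRD1 −0.001 without the count filter and −0.0205 to 0.0242 without single libraries; PRDX1 −0.0302 and FTL −0.0384 with the GC-content offset, −0.0286 and −0.0396 with offset and replicate block. In pyruvate against untreated, KEAP1 was −0.202 with the offset, −0.204 with offset and block (adjusted p = 0.0396), −0.133 without pyruvate replicates 3 and 4 and −0.0132 to 0.115 without single libraries. Without replicates 3 and 4 TXN was 0.00401, TXNRD1 0.00168 and PRDX1 0.0708, and PRDX1 was −0.0781 to 0.0395 without single libraries. FTL, at −0.002 over 12 libraries, was 0.0136 with DESeq2 and with its size factors, 0.000603 without the filter, 0.00477 with a mean of at least 1 CPM, 0.000164 in 8 libraries, and −0.0524 to 0.0773 without single libraries. In AKB against pyruvate, NFE2L2 was 0.0109 by library size alone, 0.0195 with limma-voom, 0.00295 with the block and −0.138 to 0.0997 without single libraries; TXN −0.00665 with the offset, −0.00748 with offset and block; without pyruvate replicates 3 and 4 TXN was −0.0684, PRDX1 −0.0573 and FTH1 0.13; without single libraries PRDX1 was −0.0282 to 0.0915 and FTL −0.0259 to 0.102. The cause was not tested.

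Genes called for AKB against untreated were 268, against 539 with DESeq2, 1339 in 8 libraries, 1231 with the offset, 1278 without pyruvate replicates 3 and 4, and 92 to 357 without single libraries. For pyruvate against untreated they were 265, against 152 without the filter, 1864 with DESeq2, 16 in 8 libraries, 1246 with the offset, 99 without replicates 3 and 4, and 32 to 3611 without single libraries. For AKB against pyruvate they were 426 (264 higher, 162 lower), against 214 without the filter, 1541 with DESeq2, 6 in 8 libraries, 2015 with the offset and 68 to 2111 without single libraries; library size alone gave 311 higher and 93 lower. Of the 9 genes, 2 passed for AKB in 8 libraries, with the offset and without pyruvate replicates 3 and 4, and 0 to 1 without single libraries; for pyruvate 2 with DESeq2, 2 with the offset and 0 to 2 without single libraries; for AKB against pyruvate 2 without replicates 3 and 4 and 0 to 1 without single libraries.

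Over all genes the replicate numbers gave no clear pairing of the libraries. Of 12 same-number pairs 3 correlated above 0.1 (−0.1 to 0.202), and 7 of 24 library comparisons had their own number as the best match. These correlations cannot settle pairing for a single gene. For FTH1 in pyruvate against untreated the SE was 0.134 without the replicate block and 0.095 with it. With the replicate block 158 genes were called for AKB, 565 for pyruvate and 356 for AKB against pyruvate, and 0 of the 9 genes in each. With offset and block together 1028, 1420 and 2063 genes and 2, 3 and 1 of the 9 genes were called.

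With the union of exons as length, levels per kb were 562.5 for FTH1, 487.3 for PRDX1, 180.3 for TXN, 48.2 for TXNRD1, 20.2 for NFE2L2, 28.6 for KEAP1 and 20.4 for NQO1. Other scalings moved the median of all genes by at most 0.0195 (log2).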

Other observations

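The partners and regulators of NRF2 outside the group were also read in the same fit. All 13 listed genes were tested and 0 were called by edgeR over 12 libraries in any of the 3 comparisons. Of all genes edgeR called 1.97% for AKB against untreated, 1.95% for pyruvate against untreated and 3.13% for AKB against pyruvate. At an unadjusted p below 0.05 the counts higher and lower were 1 and 2 for AKB against untreated, 2 and 2 for pyruvate against untreated, and 2 and 3 for AKB against pyruvate, where 13.2%, 28.9% and 24.2% of all genes passed in either direction. limma-voom also called 0, where it called 1.9%, 1.62% and 3.1% of all genes. DESeq2's Wald test called 1 and 0, 0 and 1, and 1 and 2, where it called 3.96%, 13.7% and 11.3%. The genes of highest CPM were MAFG, a small MAF protein that pairs with NRF2 on DNA, and SQSTM1, a selective autophagy receptor that binds KEAP1. MAFG averaged 162 ± 4.77 CPM with AKB, 172 ± 19.3 CPM with pyruvate and 164 ± 4.71 CPM in untreated cells (SD, n = 4 each). SQSTM1 averaged 143 ± 6.44 CPM with AKB, 150 ± 15.6 CPM with pyruvate and 143 ± 7.77 CPM in untreated cells. With the GC-content offset 1 gene was higher and 0 lower for AKB against untreated, 1 higher and 1 lower for pyruvate against untreated, and 1 higher and 2 lower for AKB against pyruvate. The offset called 9.05%, 9.16% and 14.8% of all genes. Without pyruvate replicates 3 and 4 the counts were 1 and 0, 0 and 0, and 0 and 0, where 9.17%, 0.71% and 4.36% passed.

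Enzymes that remove superoxide and hydrogen peroxide gave 0 calls among the 5 tested of 9 listed, in each comparison and in each of the 3 fits described (12 libraries, GC-content offset, without pyruvate replicates 3 and 4). Of all genes these fits called 1.97%, 9.05% and 9.17% for AKB against untreated and 1.95%, 9.16% and 0.71% for pyruvate against untreated. For AKB against pyruvate they called 3.13%, 14.8% and 4.36%. Before adjustment, p was below 0.05 for 2 higher genes in pyruvate against untreated, where 15% of all genes were higher at that threshold. DESeq2 called 1 higher gene there, where it called 13.7% of all genes in either direction. For the other 2 comparisons both counts were 0, and limma-voom called 0 throughout. SOD1, the cytosolic superoxide dismutase, averaged 290 ± 8.44 CPM with AKB, 311 ± 31.7 CPM with pyruvate and 268 ± 6.79 CPM in untreated cells, with adjusted p of 0.53 for AKB and 0.091 for pyruvate by edgeR. Catalase, CAT, averaged 169 ± 3.91 CPM with AKB, 172 ± 10.3 CPM with pyruvate and 181 ± 5.92 CPM in untreated cells, with adjusted p of 0.493 and 0.412.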
